A study of Gasterosteus aculeatus with 16 samples.

Results

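The genes described here are the embryonic hemoglobins and biliverdin reductase B of threespined stickleback embryos, 4 genes out of the 17440 with a logCPM value. They are hbbe1.1, an embryonic beta-type globin (ENSGACG00000013876), 2 genes named hbae1, embryonic alpha-type globins (ENSGACG00000013880 and ENSGACG00000013889), and BLVRB, biliverdin reductase B (ENSGACG00000013806). The hbae1 genes are called hbae1_13880 and hbae1_13889 here, after the last digits of their identifiers. All 4 were taken from the study's own list of genes that differed between the groups in these same clutches, and were thus selected on their exposed and control levels in logCPM or FPKM, so the difference between the groups is given for them as a description, without a test.

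Each library held RNA of 10 pooled embryos, taken whole from 1 clutch 3 days after fertilization. Mothers were wild caught as juveniles in the Navarro River and kept in groups, and each of 8 clutches came from a different mother that was chased daily with a rubber model of a sculpin, a predator of stickleback eggs and young (exposed). The other 8 clutches came from different mothers that were not chased (control). Fathers were not chased, and embryos of both groups were reared without their parents. Clutches carry the pair of numbers of their label, such as 14_28, whose meaning is not given. Exposure was assigned to tanks of mothers, and since it is not given which mothers shared a tank, clutches were treated as independent. Control clutches 15_14, 15_2 and 15_5 share their first number, as do control clutches 5_14 and 5_21, and no exposed clutches share one. If that number marks a tank or another grouping, these control clutches are not independent, which was not tested.

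Hemoglobin carries oxygen and is built from alpha-type and beta-type globin chains, each holding a heme group. Fish carry several globin genes of both types side by side in the genome, and in zebrafish one set is expressed in the first red blood cells of the embryo and another set later in life. Heme freed from old or damaged hemoglobin is opened by heme oxygenase to biliverdin, and biliverdin reductases convert biliverdin to bilirubin. In mammals, biliverdin reductase B is abundant in red blood cells and also reduces flavins.

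The genes were measured on 2 scales. CPM, the read count of a gene scaled to a common library total, was obtained by raising the deposited logCPM values from the log2 scale and taking off the constant of 2.77 CPM that they contain, and it counts reads per gene without correction for gene length. FPKM is scaled both to the library and to the exon length of the gene, and for it the authors' program divides reads that fit more than 1 place among the places. Reads in genes ranged from 8950867 to 12765406 per clutch, so that 3 reads, the upper limit that a count of 0 allows, equalled 0.235 to 0.335 CPM (counting error only). The mitochondrial share of reads was 1.14% ± 0.380 (SD, n = 8) in exposed and 0.692% ± 0.0918 (SD, n = 8) in control clutches. The mean of 27 structured non-coding RNAs of the study's list was above 0, the mean over the 16 clutches, in 5 exposed clutches and 1 control clutch. These RNAs were listed for differing between the groups in these same clutches, so this count is a description and supports nothing. In tissue taken whole, more red blood cells and more globin RNA per cell cannot be told apart.

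The beta-type globin hbbe1.1 lies on groupXI of BROADS1, positions 13646453 to 13647149. It was among the most abundant transcripts of the embryo, at rank 24 of 17440 genes by mean CPM and rank 11 of 22419 nuclear gene models by mean FPKM. In exposed clutches it had 2874 CPM at the lowest, 4133 at the median and 4594 at the highest. In control clutches the lowest was 1467 CPM, the median 2724 and the highest 3641. All 8 exposed clutches were above the control median and 5 were above every control clutch, while exposed clutches 3_10, 6_21 and 10_5 lay within the control range. Means were 3827 CPM ± 661 (SD, n = 8) in exposed and 2736 CPM ± 727 (SD, n = 8) in control clutches, a log2 fold change of 0.52 (SE 0.16) on the logCPM scale. On the FPKM scale hbbe1.1 stood at 13614 ± 1916 (SD, n = 8) in exposed and 10891 ± 2370 (SD, n = 8) in control clutches, a log2 fold change of 0.34 (SE 0.14) of log2(FPKM + 1). There, 2 exposed clutches were above every control clutch, so the groups overlapped more than in CPM.

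The first alpha-type globin, hbae1_13880, lies 3.43 kb downstream in position, at 13649883 to 13650298 of groupXI. Its CPM was low, from 2.98 at the lowest through 6.10 at the median to 7.24 at the highest in exposed clutches. In control clutches it ran from 2.44 through 3.94 to 5.03 CPM. Of the exposed clutches 7 were above every control clutch, and the exception, clutch 3_10 at 2.98 CPM, was below all but 1 of the controls. These values rest on few reads, from 29 in control clutch 5_21 to 87 in exposed clutch 8_10, for which counting alone gives an error of 18.6% and 10.7%. Means were 5.79 CPM ± 1.28 (SD, n = 8) in exposed and 3.90 CPM ± 0.890 (SD, n = 8) in control clutches, a log2 fold change of 0.36 (SE 0.11) on the logCPM scale, where the constant of 2.77 CPM makes it smaller than the 1.49-fold ratio of the means. In FPKM the same gene stood at 14068 ± 1816 (SD, n = 8) in exposed and 10612 ± 1687 (SD, n = 8) in control clutches, with a log2 fold change of 0.41 (SE 0.12). In FPKM the groups overlapped through control clutch 15_14 alone, at 13401, since the other 7 control clutches were below the lowest exposed clutch at 12555.

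The second alpha-type globin, hbae1_13889, lies at 13653435 to 13654112 of groupXI. Its CPM varied widely within both groups. In exposed clutches it ran from 12.1 CPM in clutch 6_21 through a median of 48.0 to 265.5 in clutch 14_28. In control clutches it ran from 7.14 CPM in clutch 21_14 through a median of 63.3 to 138.7 in clutch 15_5. The highest clutch was 21.9-fold above the lowest within the exposed group and 19.4-fold within the control group, against 1.60-fold and 2.48-fold for hbbe1.1. Only 3 of 8 exposed clutches were above the control median, and the groups overlapped almost completely. Means were 92.6 CPM ± 93.7 (SD, n = 8) and 66.3 CPM ± 53.7 (SD, n = 8), with a log2 fold change of 0.36 (SE 0.64), so the difference in CPM was smaller than its error. The FPKM of the same gene in the same libraries spanned only a 1.89-fold range over the 16 clutches. It was 8063 ± 1039 (SD, n = 8) in exposed and 6528 ± 1013 (SD, n = 8) in control clutches, a log2 fold change of 0.31 (SE 0.11), with 4 exposed clutches above every control clutch. The higher level of hbae1_13889 in exposed clutches is therefore a property of the FPKM values and was not seen beyond the spread in CPM.

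BLVRB lies on another chromosome, groupXIII, positions 17338064 to 17340704. It was moderately expressed, at rank 5657 by FPKM, with 108 to 247 reads per clutch. In exposed clutches it had 13.3 CPM at the lowest, 17.1 at the median and 20.0 at the highest. In control clutches the lowest was 10.9 CPM, the median 12.8 and the highest 17.3. All 8 exposed clutches were above the control median, but control clutch 15_14 lay above 6 of them, so that 2 exposed clutches were above every control clutch. Means were 17.0 CPM ± 2.18 (SD, n = 8) in exposed and 13.4 CPM ± 2.28 (SD, n = 8) in control clutches, a log2 fold change of 0.29 (SE 0.09). In FPKM the means were 12.3 ± 1.88 (SD, n = 8) and 10.1 ± 1.86 (SD, n = 8), a log2 fold change of 0.27 (SE 0.11).

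**Figure D1:**
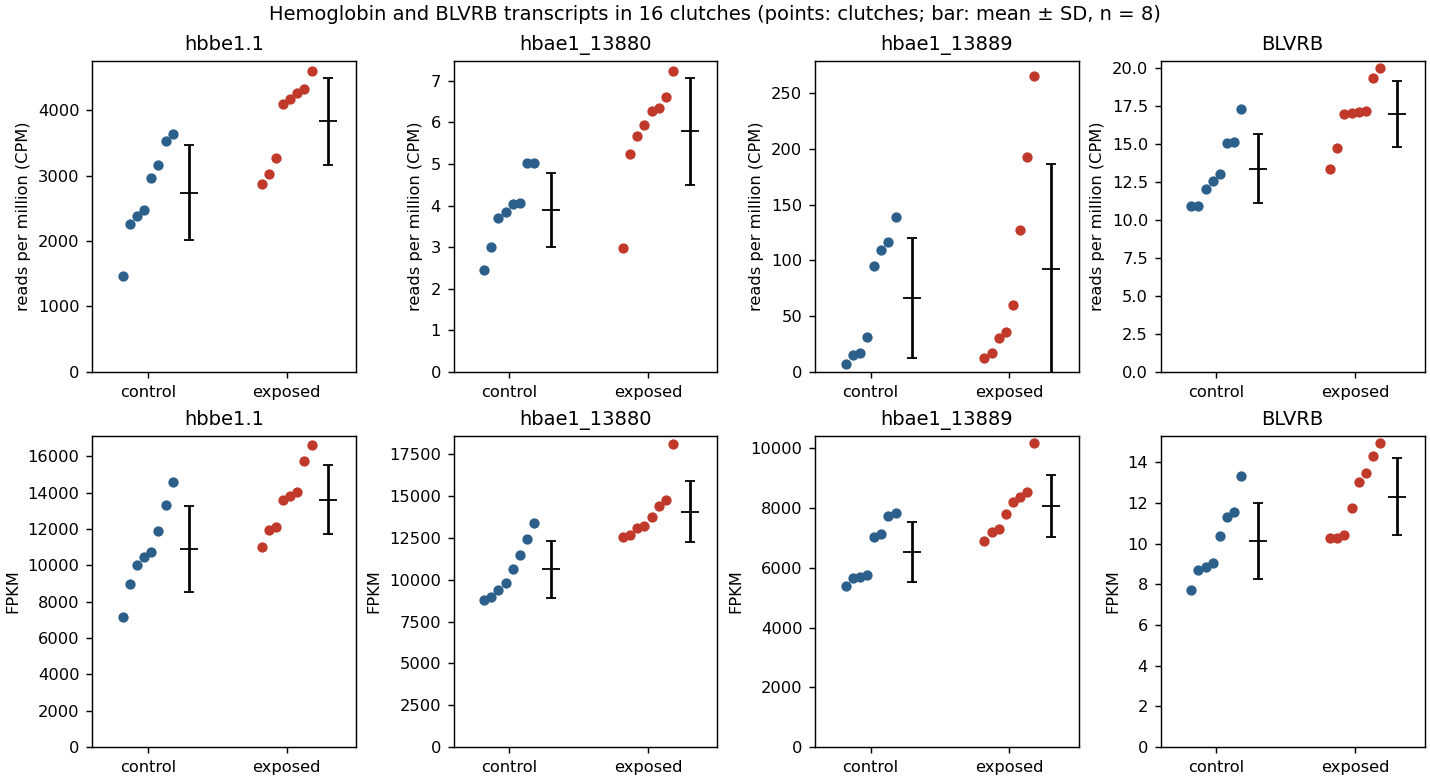
CPM (upper row) and FPKM (lower row) of each gene in the 8 control and 8 exposed clutches; each point is a clutch, sorted by value within its group, and the bar beside it gives the mean and SD. The 2 groups overlap in every panel, and the CPM of hbae1_13889 spreads from 7.14 to 265.5 while its FPKM stays between 5379 and 10171.

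When all genes were tested with limma and Benjamini-Hochberg adjustment, 0 of the 4 genes passed the false discovery rate (FDR) of 0.1 on logCPM or of 0.05 on FPKM in these fits, which are not the tests with which the study drew up its list. Over all genes, 0.103% were called higher in exposed clutches on logCPM and 0.0428% on FPKM. At an unadjusted p under 0.05, 3 of the 4 genes on logCPM, all but hbae1_13889, and 4 of 4 on FPKM were higher, where 3.28% and 3.22% of all genes were. Leaving out 1 clutch changed the count in 3 of the fits. Without exposed clutch 3_10, hbbe1.1 and hbae1_13880 passed on logCPM and hbae1_13880 on FPKM, where 1.12% and 1.39% of all genes were then called higher, and without control clutch 15_14, hbbe1.1 and BLVRB passed on logCPM, where 0.631% were. Since the genes were chosen for this difference, nothing is read from those counts. Over the whole table, the middle gene had a log2 fold change of -0.05 on logCPM and -0.08 on FPKM.

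The second number of the clutch labels was held by clutches of both groups for the numbers 5, 21 and 28, which allowed 5 comparisons of an exposed with a control clutch of the same number. They involve 5 exposed but only 3 control clutches, since 3 of them share control clutch 20_28, so they are not separate pairs. In these, the exposed clutch had the higher CPM in 5 of 5 for hbbe1.1, hbae1_13880 and BLVRB, and in 3 of 5 for hbae1_13889. In FPKM the exposed clutch was higher in 5 of 5 for each of the 3 hemoglobins and in 4 of 5 for BLVRB. The exposed clutch was higher in all 5 comparisons for 4.54% of all genes in CPM and 2.93% of gene models in FPKM. The 4 genes were chosen for being higher in exposed clutches in these same libraries, so the counts describe them and support nothing. The number 14 occurred in 4 control clutches only and the number 10 in 3 exposed clutches only. If the number marks a batch, its part in those clutches cannot be told apart from exposure.

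The 2 scales placed the alpha-type globins at very different levels. By FPKM, which is per length, hbae1_13880 and hbae1_13889 ranked 10 and 26 of 22419 nuclear gene models, next to hbbe1.1. By CPM they ranked 12247 and 2118 of 17440 genes. For each gene, FPKM was divided by CPM per kb of the gene's span to set the scales side by side. This ratio had a median of 2.19 over 15968 genes, and it was 2.60 for hbbe1.1 and 1.95 for BLVRB. For hbae1_13889 it was 62.2, and for hbae1_13880 it was 1060, with 3 genes at that ratio or above, itself included. The place of the hbae1 genes among all genes thus differed between the deposited scales. The sequences of the genes were not analysed here, and whether reads that fit several globin genes account for the gap was not tested.

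The values of a gene on both scales were also compared within each group. Both scales were made from reads of the same libraries, so their agreement is no independent result. A small p here says only that the scales order the clutches alike. Within the control group, the log2 values of hbbe1.1 on both scales gave Pearson r = 0.97 (exact permutation p = 2.5e-05, adjusted over 8 tests p = 0.000198, Spearman rho = 1), and r = 0.95 without the 2 clutches farthest from the median. Within the exposed group r was 0.81 (exact permutation p = 0.0202, adjusted p = 0.0405, rho = 0.62 with adjusted exact permutation p = 0.230), and 0.82 without the 2 farthest clutches. BLVRB gave r = 0.91 in control (adjusted exact permutation p = 0.00794, rho = 0.88) and 0.82 in exposed clutches (adjusted exact permutation p = 0.0267, rho = 0.79 with adjusted p = 0.0745), so that in exposed clutches the ranks of neither gene passed. In contrast, r for hbae1_13880 was 0.35 in exposed and 0.58 in control clutches, and for hbae1_13889 it was 0.36 and -0.33, none of which passed the exact permutation test.

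**Figure D2:**
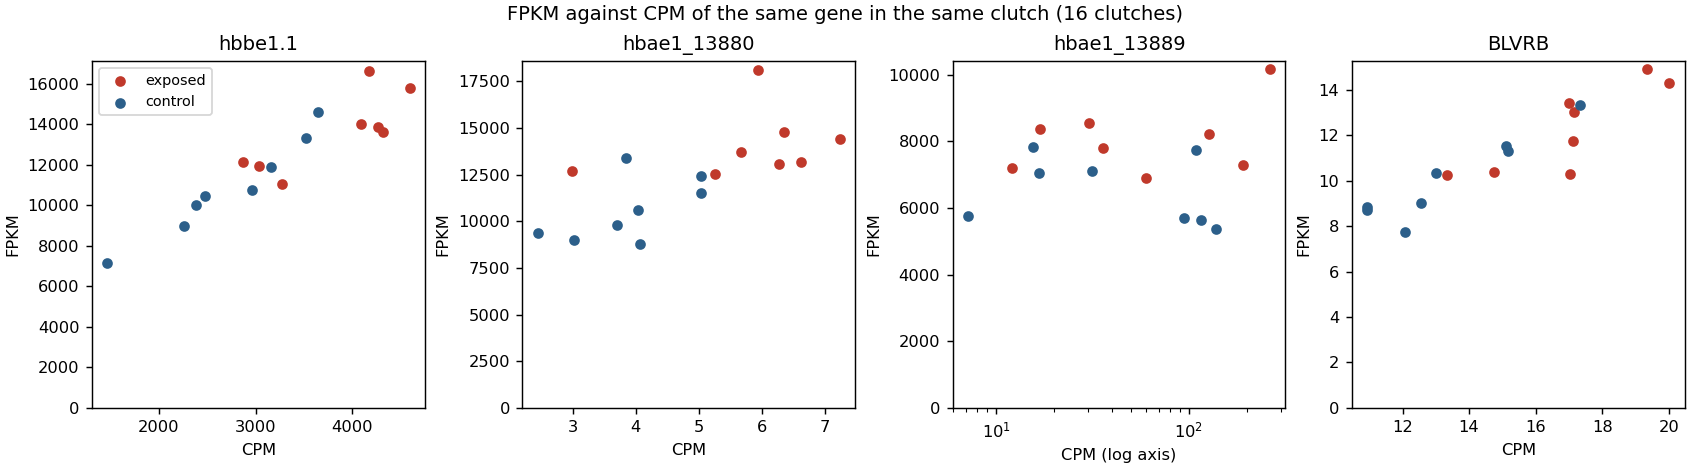
FPKM against CPM of each gene in the 8 exposed (red) and 8 control (blue) clutches; each point is a clutch, and the CPM axis of hbae1_13889 is logarithmic. Points of hbbe1.1 and BLVRB rise together (r = 0.81 to 0.97 within groups), while those of hbae1_13889 show no common order (r = 0.36 and -0.33).

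The spread between clutches of one group was compared with that of other genes. The within-group SD of hbae1_13889 was 1.52 on the logCPM scale, larger than in 99.96% of the 9789 genes with a mean of at least 10 CPM. That of hbbe1.1 was 0.35, larger than in 94.7% of them, and BLVRB, at 0.18, lay near the middle (51.6%). On the log2(FPKM + 1) scale the within-group SD of hbae1_13889 was 0.20, larger than in 49.2% of the 9277 gene models with a mean of at least 5 FPKM. The spread of this gene between clutches was thus extreme in CPM and ordinary in FPKM.

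The 3 hemoglobin genes lie in a block of very abundant short gene models. Of 17 gene models within 50 kb of them, 11 followed each other over 22.9 kb of groupXI, from 13640461 to 13663375, with spans of 416 to 759 nt and mean FPKM between 2510 and 16995. The other 6 models had at most 9.73 FPKM. Besides the 3 hemoglobins the block holds 8 models that the sources used here do not name, and they are given by identifier only. The most abundant nuclear gene model by mean FPKM, ENSGACG00000013869, is one of these, 5.99 kb from hbbe1.1. In CPM the 8 unnamed models had means between 898 and 3718, so that within the block only the hbae1 genes fell below 100 CPM on average. Their ratio of FPKM to CPM per kb was 1.41 to 4.91.

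These 8 neighbours are given with their values from the fits over all genes. They were taken for lying beside genes chosen for the difference between groups, so their direction is no independent support. Between clutches, with group means subtracted, their r with the 3 hemoglobins was above 0 throughout on FPKM, at least 0.26 and not tested. On logCPM it was below 0 for some of the neighbours. All 8 had a log2 fold change above 0 on both scales, as had 34.2% of all genes on logCPM and 27.9% of gene models on FPKM, but 0 of 8 passed the FDR on either scale. Their median log2 fold change was 0.27 on logCPM, between 0.06 and 0.42, and 0.20 on FPKM, between 0.00 and 0.32. The largest on logCPM was that of ENSGACG00000013871, with 1607 CPM ± 564 (SD, n = 8) in exposed and 1178 CPM ± 337 (SD, n = 8) in control clutches, a log2 fold change of 0.42 (SE 0.19, limma adjusted p = 0.272). At an unadjusted p under 0.05 there were 2 of 8 on logCPM, ENSGACG00000013871 and ENSGACG00000013918, and 0 of 8 on FPKM, where 3.28% and 3.22% of all genes were higher at that threshold. The most abundant one, ENSGACG00000013869, had 18115 FPKM ± 2072 (SD, n = 8) in exposed and 15875 FPKM ± 3038 (SD, n = 8) in control clutches, a log2 fold change of 0.21 (SE 0.13, limma adjusted p = 0.398). The neighbours share libraries and a locus, and they are independent neither of each other nor of the 3 hemoglobins.

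The whole block of 11 models took 2.16% ± 0.334 (SD, n = 8) of the reads in genes in exposed clutches and 1.76% ± 0.397 (SD, n = 8) in control clutches. The ranges, 1.92% to 2.92% and 1.27% to 2.36%, overlapped. The 3 hemoglobins of the study's list are part of this sum, so it is a description. It was summed in CPM, where hbae1_13880 and hbae1_13889 had means of only 4.84 and 79.5, so these genes add little to it. Outside the block, the nearest model on one side, ENSGACG00000013864 at 14.2 kb from hbbe1.1, had a log2 fold change of -0.10 (SE 0.13, limma adjusted p = 0.733), and that on the other side, ENSGACG00000013930 at 18.2 kb, one of 0.14 (SE 0.07, limma adjusted p = 0.360). Neither passed the test.

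**Figure D3:**
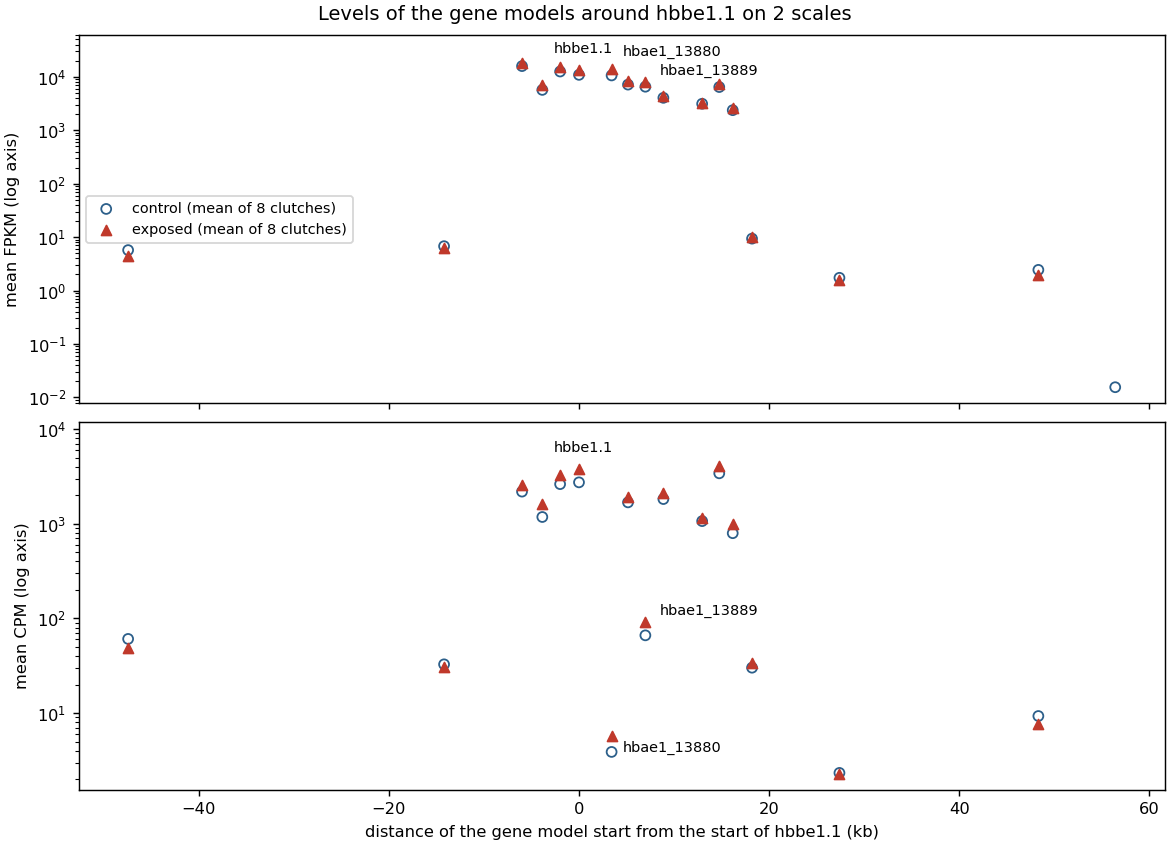
Mean FPKM (upper panel) and mean CPM (lower panel), both on log axes, of the gene models around hbbe1.1 against the distance of their start from that of hbbe1.1 in kb; open circles are means of 8 control clutches and triangles means of 8 exposed clutches, and a mean of 0 is not drawn. The 11 models of the block stand between 2510 and 16995 FPKM, the others at 9.73 or less, and in CPM both hbae1 genes drop out of the block.

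The covariation of the genes between clutches was tested within each group of 8, which does not use the difference between groups, in 24 tests over both scales, read at an adjusted p of 0.05 on either scale. On logCPM, 0 of the 12 tests were under that threshold after Benjamini-Hochberg adjustment, and 1 of the 12 had an unadjusted p under 0.05. That pair was hbbe1.1 and hbae1_13880 in exposed clutches, with r = 0.71 (exact permutation p = 0.0203, adjusted p = 0.0975). Its r would pass at an adjusted p of 0.1, but its ranks would not (rho = 0.62, exact permutation p = 0.115, adjusted p = 0.394). Without the 2 clutches farthest from the median r was 0.77, while in control clutches the same pair gave r = -0.05. The alpha-type pair hbae1_13880 and hbae1_13889 gave r = -0.18 in exposed and -0.26 in control clutches. The pair of hbbe1.1 and hbae1_13889 gave r = 0.08 in exposed and -0.46 in control clutches.

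On FPKM the 3 hemoglobins moved together. The alpha-type pair had r = 0.94 in exposed clutches (rho = 0.88, exact permutation p = 0.00159, adjusted p = 0.0118) and r = 0.96 in control clutches (rho = 0.95, exact permutation p = 0.000174, adjusted p = 0.00417). Without the 2 farthest clutches r was 0.82 and 0.93. With hbbe1.1, hbae1_13880 gave r = 0.85 (adjusted exact permutation p = 0.0118, rho = 0.93) and hbae1_13889 gave r = 0.91 (adjusted exact permutation p = 0.0118, rho = 0.90) in exposed clutches. In control clutches those values were 0.67 and 0.72 and did not pass (adjusted exact permutation p = 0.242 and 0.185), and without the 2 farthest clutches they were 0.20 and 0.43. Whether the groups differ in this covariation was not tested. FPKM of models that share reads are not separate measurements, and their part in the covariation was not tested.

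For BLVRB, covariation with the hemoglobins did not pass the test with 8 clutches in a group. Its r with the 3 globins was between -0.23 and 0.12 on FPKM and between -0.44 and 0.33 on logCPM, and none of these 12 tests passed. Some of these values changed when the 2 clutches farthest from the median of the globin were left out, whatever their level of BLVRB. Without the 2 clutches farthest from the median, r in control clutches moved on FPKM from -0.11 to -0.83 with hbae1_13880 and from -0.23 to -0.76 with hbae1_13889, and on logCPM from 0.33 to 0.76 with hbae1_13889. In exposed clutches r with hbbe1.1 on FPKM moved from 0.09 to -0.51. With 6 clutches left, these values were not tested.

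**Figure D4:**
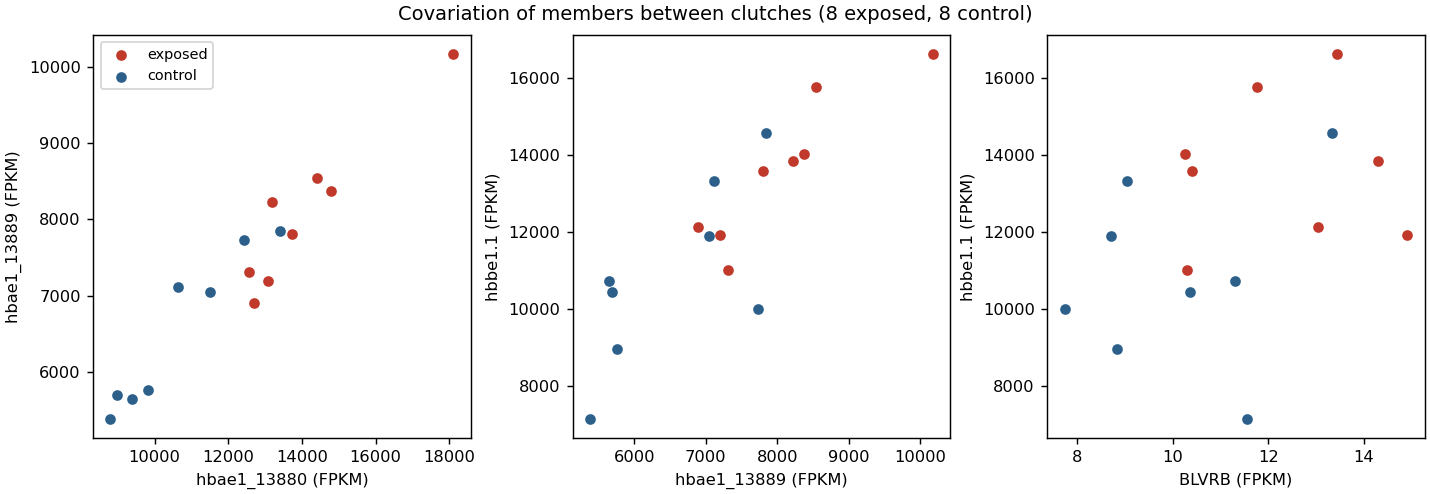
FPKM of hbae1_13889 against hbae1_13880, of hbbe1.1 against hbae1_13889, and of hbbe1.1 against BLVRB; each point is a clutch, exposed in red and control in blue. The alpha-type pair lies along a line in both groups (r = 0.94 and 0.96), and the points of hbbe1.1 against BLVRB are scattered (r = 0.09 and 0.12).

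Over the whole block, Pearson r between the log2 values of each pair of models was computed over the 16 clutches after subtracting the group means, as a description. On FPKM all 55 pairs were above 0, with a median of 0.72 and a range of 0.21 to 0.95. On logCPM the median was 0.26, the range -0.31 to 0.90, and 42 of 55 pairs were above 0. There, hbbe1.1 went with ENSGACG00000013869 (r = 0.81), ENSGACG00000013895 (r = 0.69) and ENSGACG00000013918 (r = 0.56), and not with ENSGACG00000013871 (r = -0.05), ENSGACG00000013873 (r = -0.19) or ENSGACG00000013882 (r = -0.31). The last models named went with each other. Their r was 0.90 for ENSGACG00000013871 and ENSGACG00000013873, and 0.78 and 0.77 for each of them with ENSGACG00000013882. ENSGACG00000013902 had r = 0.16 with hbbe1.1, and r = 0.88, 0.81 and 0.84 with these models in the order named. The models did not form separate sets. ENSGACG00000013918 went with hbbe1.1, but also had r = 0.52, 0.46 and 0.45 with the same models, and 0.71 with ENSGACG00000013902. ENSGACG00000013891 had r = 0.45 with hbbe1.1 and 0.19, 0.24 and 0.31 with the same models. Models that went with hbbe1.1 and models that did not lie intermixed along the block. All pairs share libraries and depth.

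**Figure D5:**
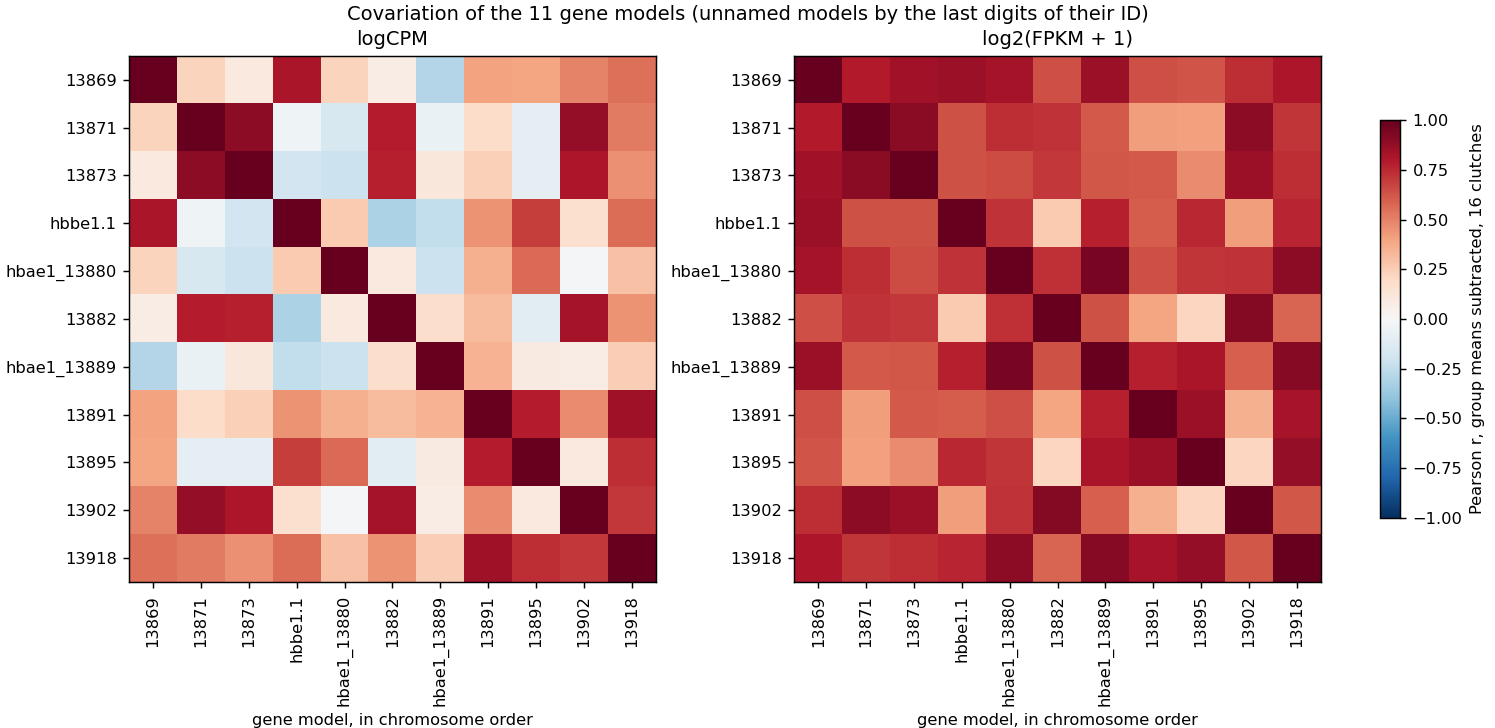
Pearson r of each pair of the 11 gene models over 16 clutches with group means subtracted, on logCPM (left) and log2(FPKM + 1) (right), in chromosome order; red is above 0 and blue below. On logCPM hbbe1.1 is red with ENSGACG00000013869 (r = 0.81) and blue with ENSGACG00000013882 (r = -0.31), and on FPKM all 55 pairs are above 0.

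Genes whose level followed hbbe1.1 most closely were sought among 9788 genes on logCPM, by Pearson r over the 16 clutches after subtracting the group means. The 10 highest had r between 0.73 and 0.85, where the median gene had -0.26. The highest were ENSGACG00000010318 on groupXVIII (r = 0.85), ENSGACG00000004171 on groupVI (r = 0.83) and the neighbour ENSGACG00000013869 (r = 0.81), and this neighbour was the only one of the 10 from the block. None of the 10 has a name in the sources used here. For hbae1_13889 on FPKM, among 9276 gene models, the most alike were hbae1_13880 (r = 0.95), ENSGACG00000013918 (r = 0.91) and ENSGACG00000013869 (r = 0.86), and 6 of the first 10 were from the block, with hbbe1.1 at place 8 (r = 0.78). The median gene model had r = -0.15. Both lists hold the highest of many values over 16 clutches, and they were not tested.

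The 4 genes were also compared with measured properties of the libraries within the groups. Each gene was compared on both scales with reads in genes, the mitochondrial share and the structured RNA mean, in 48 exact permutation tests, of which 0 had an unadjusted p under 0.05 and r lay between -0.67 and 0.60. The smallest p was 0.0831 (adjusted p = 0.770), for BLVRB on FPKM and the structured RNA mean in exposed clutches (r = -0.67, rho = -0.52, and r = -0.67 without the 2 farthest clutches). Other values moved when the 2 farthest clutches were left out, to between -0.78 and 0.90, with no test. Those clutches were the farthest from the median of the library measure, whatever the level of the gene. In control clutches BLVRB and the mitochondrial share went from 0.54 to 0.90 on logCPM and from 0.45 to 0.88 on FPKM, and hbbe1.1 and the structured RNA mean from -0.19 to -0.78 on logCPM. In exposed clutches hbae1_13889 on logCPM and the structured RNA mean went from 0.08 to 0.78. A part of these properties in the levels of the 4 genes was therefore not settled by these tests. Without the 6 clutches whose structured RNA mean was above 0, which leaves 3 exposed and 7 control clutches, the log2 fold change on logCPM was 0.31 (SE 0.24) for hbbe1.1, 0.25 (SE 0.16) for hbae1_13880, 0.62 (SE 0.91) for hbae1_13889 and 0.34 (SE 0.13) for BLVRB. On FPKM these values were 0.32 (SE 0.22), 0.49 (SE 0.17), 0.34 (SE 0.17) and 0.38 (SE 0.13). All 8 were above 0, which supports nothing, since the genes were chosen for this difference in libraries that include these.

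Of the wider pathway little could be followed, since the files give identifiers without names. Of 136 symbols for other globins, red cell transcription factors, heme synthesis, iron handling, the red cell membrane, heme breakdown and other cell types, 3 could be matched to an identifier, all through the study's list and so already chosen for their difference, and 0 of 3 passed the FDR on logCPM (0.516% of all genes did), while 3 of 3 had an unadjusted limma p under 0.05 (16.3% of all genes had). Nothing is read from these counts. The hemoglobin-binding plasma protein haptoglobin (hp) had 42.9 CPM ± 19.2 (SD, n = 8) in exposed and 27.96 CPM ± 17.8 (SD, n = 8) in control clutches. The heme-binding plasma protein hemopexin (HPX) had 170.3 CPM ± 31.5 (SD, n = 8) and 132.4 CPM ± 20.8 (SD, n = 8). AQP8, a water channel whose gene lies next to a globin cluster in other fish, was at 4.14 CPM ± 1.48 (SD, n = 8) and 2.51 CPM ± 0.666 (SD, n = 8), and lies on scaffold_112 in this build. Defining markers of red blood cells other than the hemoglobins, such as the heme synthesis enzyme alas2 or the membrane transporter slc4a1a, could not be looked up. The embryonic and red cell label of these genes therefore rests on their names.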

How the data were processed

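The authors selected RNA with oligo(dT), prepared stranded libraries, aligned trimmed single-end reads to BROADS1 (Ensembl annotation) with TopHat2 2.0.8, and gave every gene a value on 2 scales. The deposited logCPM values (log2 scale, 17440 genes) were made by the authors with edgeR, from reads in genes, and leave out genes that had no or hardly any reads. The deposited FPKM values, with bounds, cover 22456 gene models (7 identifiers lie on 2 loci), and the authors obtained them from Cufflinks 2.1.1. FPKM of the 3 hemoglobins exceeded the upper bound in their own file in all 16 clutches (1.82 to 1.84 times for hbbe1.1, 3.58 to 3.62 for hbae1_13880, 1.85 to 1.87 for hbae1_13889), as did 9.02% of 21287 gene models, and BLVRB exceeded it in 3 clutches. The bounds were therefore not used as errors.

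Raised from the log2 scale, every logCPM value less 2.77 CPM was a whole number of reads, to within 4.1e-09 of a read, and these reads were used.

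Groups came from the labels. The groups were compared with limma 3.58.1 in R 4.3.3 (lmFit, and eBayes with a trend), two-sided, on logCPM at FDR 0.1 over 17440 genes and on log2(FPKM + 1) at FDR 0.05 over 21028 gene models, those detected in at least 2 clutches. Those thresholds follow the study, and the pseudocount of 1 lowers fold changes of weakly expressed genes. Correlations were tested within groups by enumerating all pairings (scipy 1.17.1, two-sided), adjusted within each family of tests. Where 2 clutches were left out, they were the farthest from the group median of 1 of the compared variables only. This was the logCPM value of a gene compared on both scales, or the library measure. For a pair it was the gene first in the order hbbe1.1, hbae1_13880, hbae1_13889, BLVRB. The fits were also run on simulated data that gave all genes the same spread and had no grouping of clutches. That check therefore does not cover genes of wide spread or groupings among these clutches. Figures were drawn with matplotlib 3.10.9.

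The genes and lists were chosen with earlier results of these data known. Named genes are the 4 members, the gene models within 50 kb of those on groupXI, matched list genes, and the 10 genes most like hbbe1.1 on logCPM (mean of at least 10 CPM) or hbae1_13889 on FPKM (mean of at least 5). By list, 1 of 9 landmarks of globin loci and 2 of 9 heme breakdown genes were matched, and 0 of the symbols of the other lists. Alternatives were median-of-ratios scaling, filters on low values, another pseudocount, voom on the reads, the structured RNA mean as a covariate, the second label number as a replicate block and each clutch left out in turn. Leaving out the 6 clutches with a structured RNA mean above 0 was added after seeing the data. Promoter and protein sequences were not analysed here.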

Additional observations from a re-analysis of the deposited data

Results flagged for a closer look

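Among the 16 groups of 8 clutches that the 4 genes give on the 2 scales, 2 had a clutch far from the others by Dixon's criterion, where chance alone marks about 1 group in 20. Exposed clutch 3_10 was lowest for hbae1_13880 at 2.98 CPM, and its gap to the next clutch was 0.533 of the range of the group, above the critical value at 95%. Exposed clutch 14_28 was highest for hbae1_13880 at 18115 FPKM, with a gap of 0.598 of the range. It was also the highest for hbae1_13889 on both scales and for hbbe1.1 in FPKM, at 16632. Clutch 14_28 was not extreme for the CPM of hbae1_13880, at 5.93.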

How the results depend on the processing

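The 4 genes were chosen for being higher in exposed clutches of these same libraries, so the signs below describe them and support nothing. In the fits over all genes, 34.2% of genes on logCPM and 27.9% of gene models on FPKM had a log2 fold change above 0. The log2 fold changes of the 4 genes were recomputed under 22 alternatives on logCPM and 21 on FPKM, most of which left out 1 clutch. Of the 172 values this gave, 171 were above 0. The exception was hbae1_13889 on logCPM with the second label number as a replicate block, at -0.39 (SE 0.91), against 0.36 (SE 0.64) as deposited. For hbae1_13880 on logCPM, voom on whole reads, which has no constant of 2.77 CPM, gave 0.59. Ranges on logCPM were 0.31 to 0.60 for hbbe1.1, 0.25 to 0.59 for hbae1_13880, -0.39 to 0.64 for hbae1_13889 and 0.22 to 0.36 for BLVRB, and on FPKM 0.26 to 0.50, 0.36 to 0.57, 0.26 to 0.47 and 0.19 to 0.41.

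The number of genes called over the whole table was unstable. On logCPM, 90 were called, against 15 with median-of-ratios scaling. With the structured RNA mean as covariate, with the second label number as a replicate block, and without the 6 clutches of high structured RNA mean, limma called 0 (1619, 1750 and 1532 genes at an unadjusted p under 0.05, against 2840). On FPKM, 65 were called, against 241 with a pseudocount of 0.1, 207 with a mean FPKM of at least 1, 1 with median-of-ratios scaling, and 0 by limma with the replicate block or without those 6 clutches (2481 and 1932 at an unadjusted p under 0.05, against 4382). The structured RNA mean was made from RNAs listed for differing between these groups. Adjusting for it, or leaving out clutches by it, can also remove part of the difference between groups, so nothing is read from those fits. Leaving out 1 clutch gave 7 to 1233 calls on logCPM and 0 to 1550 on FPKM. The count moved by over 1.5 times for every clutch on logCPM but exposed 26_28 and control 5_21, and for every clutch on FPKM but exposed 8_10 and control 15_14. It was highest on both scales without exposed clutch 3_10, lowest on logCPM without control clutches 21_14 or 5_14, and 0 by limma on FPKM without exposed clutches 17_10 or 24_28 (3518 and 3337 at an unadjusted p under 0.05). None of the 4 genes was called on either scale in the other fits, but without exposed clutch 3_10 limma called 2 of them on logCPM and 1 on FPKM, and without control clutch 15_14 it called 2 on logCPM. The cause was not tested.

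Covariation on FPKM in place of logCPM passed the test for hbbe1.1 with hbae1_13880 (0.85 against 0.71) and with hbae1_13889 (0.91 against 0.08) in exposed clutches, and for the hbae1 pair in exposed (0.94 against -0.18) and control clutches (0.96 against -0.26). Without passing, r turned on FPKM from -0.05 to 0.67 and from -0.46 to 0.72 for hbbe1.1 with hbae1_13880 and hbae1_13889 in control clutches, from -0.29 to 0.0859 for hbbe1.1 with BLVRB in exposed clutches, and from 0.33 to -0.23 for hbae1_13889 with BLVRB in control clutches. Pooling the 16 clutches on logCPM turned hbbe1.1 with hbae1_13880 in control clutches to 0.56, hbbe1.1 with hbae1_13889 in exposed clutches to -0.11, hbbe1.1 with BLVRB in exposed clutches to 0.36 and hbae1_13880 with BLVRB in control clutches to 0.31. Pooled values hold the difference between groups for which the genes were chosen. With group means subtracted, these pairs, in the same order, had r = 0.26, -0.24, -0.06 and -0.19 over the 16 clutches. Within the groups named, leaving out the 2 farthest clutches turned the first 3 of these pairs to 0.0475, -0.47 and 0.00044. It turned the hbae1 pair in control clutches to 0.20.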
